A study of Mus musculus with 9 samples.

Results

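The polycyclic aromatic hydrocarbons 7,12-dimethylbenz[a]anthracene (DMBA) and benzo[a]pyrene (BaP) were set together against their acetone vehicle in cultured neonatal mouse ovaries. The hydrocarbon group held 6 arrays, 3 from ovaries given DMBA at 50 nM and 3 from ovaries given BaP at 1 uM, and the control group held the 3 arrays from ovaries given 0.01% acetone, so all 9 arrays of the series entered. The arrays were chosen by their labelled treatment, and the mean of each compound carried equal weight. All ovaries came from Swiss mice at postnatal day 3 to 4 and were kept for 4 days in a serum-containing medium with insulin, transferrin, selenium, basic fibroblast growth factor, leukemia inhibitory factor and stem cell factor. Total RNA was hybridised to Illumina Ref-8 beadchips for mouse genes. The labels add that the DMBA concentration came from pilot work aimed at overt toxicity. They do not say how many animals or ovaries stand behind an array, or whether arrays with 1 treatment had separate cultures. The p-values therefore measure only how far these samples lie apart, a spread that may be technical.

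Both compounds are planar ring systems, BaP a product of combustion and of tobacco smoke and DMBA a laboratory carcinogen. They bind the aryl hydrocarbon receptor, a transcription factor that switches on cytochrome P450 and conjugating enzymes, and those enzymes convert the compounds to diol epoxides that attach to DNA. DNA damage stabilises p53, which raises genes of cell cycle arrest, repair and apoptosis, and the neonatal ovary, which holds the lifelong store of primordial follicles, is known as a target of both compounds.

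The question was which transcripts moved with both hydrocarbons, and which pooled value came from one compound alone. Signals were background corrected, quantile normalized and put on the log2 scale, and a level below is such a log2 signal of the brightest probe of a gene. A pooled difference is the mean of the DMBA and BaP means minus the acetone mean. It was tested with limma over 17889 genes with Benjamini-Hochberg adjustment, and a gene passed at an adjusted p under 0.05. Because a background offset was added, differences of dim genes are understated. The dose of one compound was not the dose of the other, so their values are given side by side and were not tested against each other. Both sets of differences use the same 3 acetone arrays.

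Median signals before normalization ran from 105.2 to 126 on DMBA arrays, from 94.7 to 104.1 on BaP arrays and from 105.8 to 133.7 on acetone arrays, so the BaP arrays were the dimmest. DMBA replicate 3 stood apart on the second principal component, at -23.7, and strayed most from its group mean (SD over genes 0.15 on the log2 scale, where the other 8 arrays had 0.08 to 0.12). The tissue label was checked on marker genes. The oocyte genes Gdf9, Zp3 and Bmp15, the granulosa gene Inha, the stromal genes Dcn and Col1a1, the mesothelial gene Upk3b and the epithelial gene Krt8 had mean levels of 9.05 or more. Mean levels between 6.23 and 6.69, near the median gene at 6.42, were found for the germ cell gene Ddx4, the granulosa genes Foxl2 and Amh, the tubal genes Foxj1 and Ovgp1, the endothelial genes Pecam1 and Cdh5 and the macrophage gene Csf1r. The other macrophage gene checked, Cd68, lay between these groups at 8.09. Probes differ in brightness, so these levels are not an order of abundance between genes. In whole ovaries, fewer cells of a type and less RNA per cell cannot be told apart.

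The pooled comparison moved 697 genes past the test, which is 3.9% of those tested. Of these, 369 were higher with the hydrocarbons (2.06%) and 328 were lower (1.83%). Few changes were large. A total of 86 genes was at least 1.5-fold higher and 36 at least 1.5-fold lower, and only 15 and 6 reached a log2 difference of 1. Genes above the median level were called more often, at 7.17%, with 3.89% higher and 3.28% lower. The 6 hydrocarbon arrays all lay above the acetone range for 536 genes (3.0%) and all below it for 684 (3.82%), and 540 of the 697 called genes had such separated groups. In the plot of pooled difference against level, 641 of the 697 called genes lie above the median level, so calls are concentrated among the brighter genes.

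**Figure D1:**
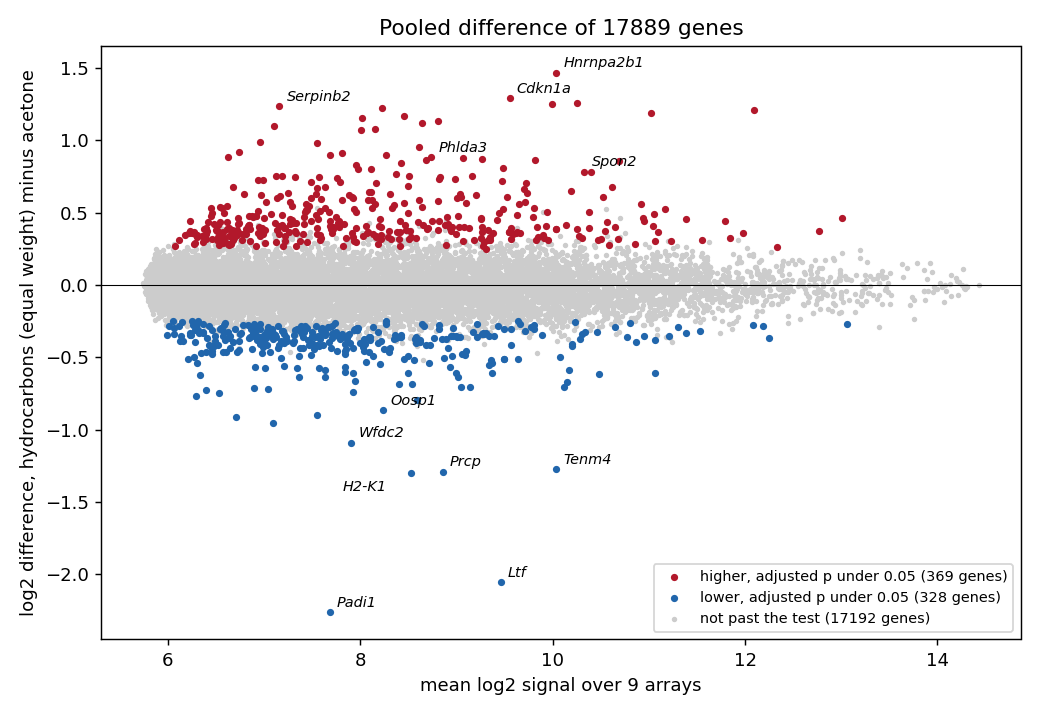
Each point is 1 of 17889 genes, with the mean log2 signal over 9 arrays on the horizontal axis and the pooled log2 difference, hydrocarbons minus acetone, on the vertical axis. Red marks the 369 genes higher and blue the 328 genes lower at an adjusted p under 0.05, grey the rest, and Padi1 at -2.26 and Hnrnpa2b1 at 1.47 lie at the ends of the scale.

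The direction of the whole set depended on scaling. With each array scaled to its median in place of quantile normalization, 99 genes were called higher and 786 lower, the median difference of genes above the median level was -0.24, and 387 of the 697 genes were called again. The main values are therefore differences relative to the bulk of genes on an array. More genes passed with BaP, whose arrays were the dimmest. BaP alone in the same fit called 1083 genes (6.05%), 510 higher (2.85%) and 573 lower (3.2%), and DMBA alone called 297 (1.66%), 186 higher (1.04%) and 111 lower (0.62%). The DMBA difference was the smaller one in 540 of the 697 called genes.

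A group of 24 named genes, the 12 highest and 12 lowest by the smaller of the 2 compound differences, moved with both compounds, and each of them also passed with DMBA alone and with BaP alone. Levels of all 24 stood outside the acetone range on all 6 hydrocarbon arrays, which the choice of genes required. Passing with each compound alone also follows largely from that ranking and is no separate support. The gene with the largest fall was Padi1, which encodes a peptidylarginine deiminase that converts arginine in proteins to citrulline. Padi1 read 7.45, 7.36 and 7.72 on DMBA arrays and 6.34, 6.28 and 6.41 on BaP arrays, against 9.17, 9.11 and 9.30 on acetone arrays. Every hydrocarbon array was far below every acetone array, and the BaP arrays were lowest. Its pooled log2 difference of -2.26 (SE 0.08, adjusted p = 2.33e-10) is a level 4.80 times lower. Tenm4, a teneurin cell adhesion gene, read 9.43, 9.79 and 9.77 on DMBA arrays and 9.21, 9.78 and 9.70 on BaP arrays, against 10.94, 10.81 and 10.91 on acetone arrays. Its levels with DMBA and BaP overlapped, all below acetone, and its pooled difference was -1.27 (SE 0.11, adjusted p = 6.16e-06).

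Among the rest that fell were matrix and surface genes. Mmp9, a secreted gelatinase, fell by 0.74 (adjusted p = 3.9e-05), Hspg2, the basement membrane proteoglycan perlecan, by 0.62 (adjusted p = 1.72e-04) and Sdc4, a heparan sulfate proteoglycan of the cell surface, by 0.67 (adjusted p = 9.05e-04). The prostaglandin transporter gene Slco2a1 fell by 0.71, the serine protease gene Tmprss2 by 0.77, the GABA receptor subunit gene Gabrp by 0.75 and the dynein light chain gene Dynlrb2 by 0.73. Xist, the noncoding RNA that silences one X chromosome, read 8.47, 8.57 and 8.30 on DMBA arrays and 8.40, 8.24 and 7.95 on BaP arrays, against 9.11, 9.20 and 9.04 on acetone arrays. The groups did not overlap, and a dimmer Xist probe gave -0.67 beside the -0.79 of the brighter one. Pramel25, a gene of the PRAME-like family, fell by 0.90, with a DMBA difference of -0.60 and a BaP difference of -1.20.

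Among the 12 that rose, the largest value was that of Hnrnpa2b1, an RNA-binding protein of pre-mRNA processing. It read 10.39, 10.20 and 10.45 on DMBA arrays and 10.66, 10.69 and 10.79 on BaP arrays, against 9.31, 9.03 and 8.85 on acetone arrays, a pooled difference of 1.47 (SE 0.09, adjusted p = 2.39e-07). The cell cycle inhibitor gene Cdkn1a came next at 1.29 and is described with the p53 targets. The endoplasmic reticulum chaperone gene Calr rose by 1.25, the adenylosuccinate synthase gene Adss by 1.22, the heat shock cognate gene Hspa8 by 1.21 and Tsc22d1, a leucine zipper transcription regulator, by 1.19. Kctd14 rose by 1.17, the peroxisomal carrier gene Slc25a17 by 1.15, the dynein light chain gene Dynll2 by 1.12 and the RNA helicase gene Ddx5 by 1.10. Nipsnap2, a mitochondrial protein gene, and Eif4g2, a translation initiation factor gene, rose by 1.08 and 1.07. DMBA and BaP differences were close to each other for Tsc22d1 at 1.18 and 1.19, for Kctd14 at 1.19 and 1.16, and for Eif4g2 at 1.10 and 1.05. In 9 of these 12 genes acetone replicate 1 was the highest of the acetone arrays, and in 2 of the 12 that fell. For single genes over the arrays alone, an exact permutation test of 6 against 3 can reach no p below 0.0119. That was its value for Cdkn1a, Padi1 and Hnrnpa2b1, and choosing genes with separated groups largely set it in advance.

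**Figure D2:**
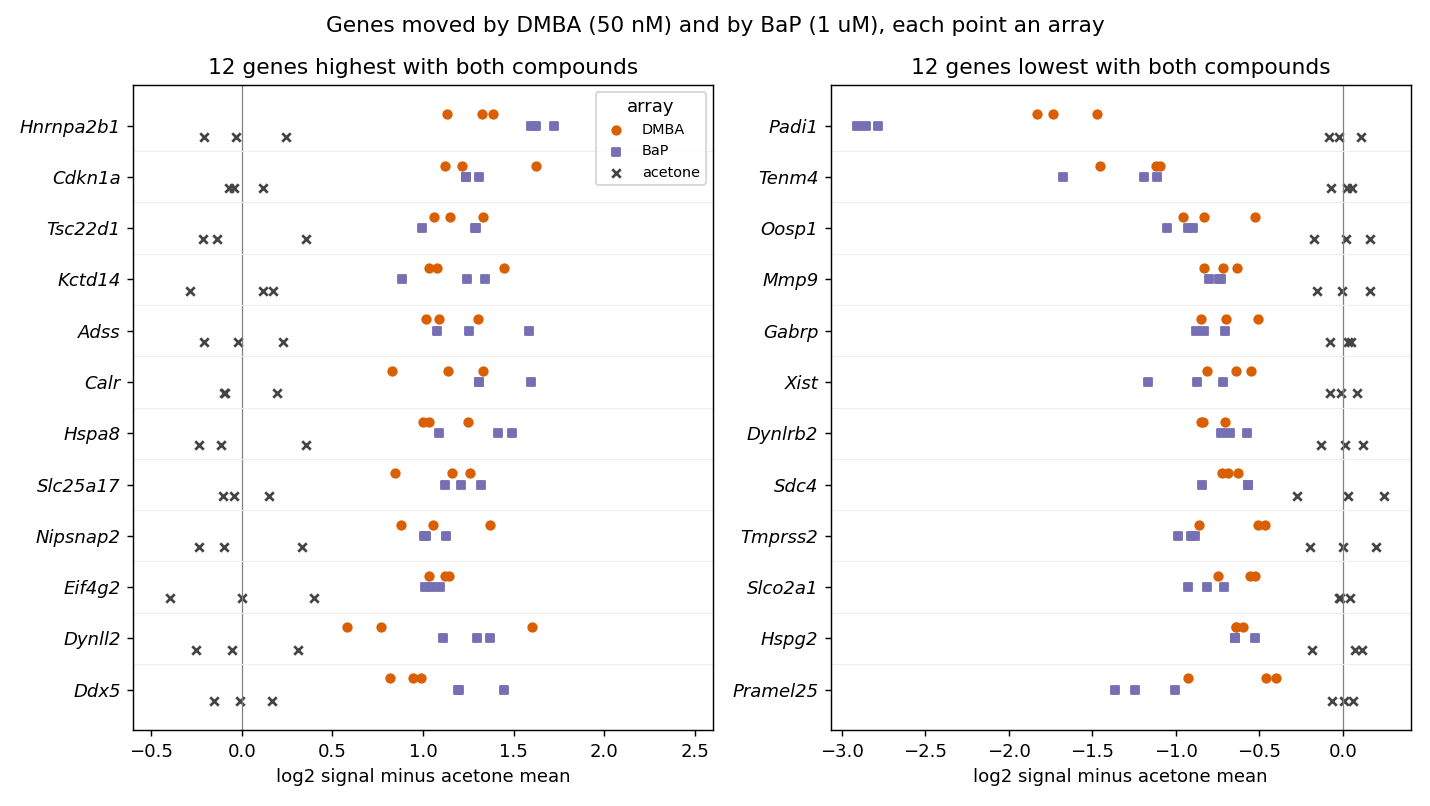
Each point is an array, placed by its log2 signal minus the acetone mean of that gene, for DMBA (circles), BaP (squares) and acetone (crosses). The 12 genes on the left lie above and the 12 on the right below all acetone arrays with both compounds, and the BaP points of Padi1 lie near -2.85 against -1.68 for the DMBA mean.

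Other probes of the same genes did not always follow. The dimmer probes of Cdkn1a gave pooled differences of 0.73 and 0.84, that of Kctd14 gave 0.52 and that of the complement protease gene C1s1 gave 0.82. In contrast, the other probes of Hnrnpa2b1 gave 0.04 and 0.03, that of Tsc22d1 0.06 and that of Eif4g2 0.13, and the remaining probes of Ddx5 and Dynll2, near the lowest levels on the arrays, gave -0.04 and -0.14. Over all called genes, 190 other probes had a mean above the median level, 159 of them shared the sign of the brightest probe and 94 had more than 0.5 times its size. With the mean of all probes, 11 named genes no longer passed, which were Fas, Casp9, Brca2, Nqo1, Srxn1, Ddx4, Fbln2, Hnrnpk, Srsf5, Rrm2 and Insig2. For the genes whose probes disagreed, the value reported is that of 1 probe, and which transcripts each probe detects was not tested.

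Part of the p53 target list rose. Of 42 measured p53 targets, 8 rose and 0 fell, against 2.06% and 1.83% of all genes, and the median pooled difference of the list was 0.08 against -0.01 over all genes. With median scaling 3 rose, 0 fell and the list's median was -0.02. Counts without 1 array ran from 4 to 10, with 4 when acetone replicate 2 or 3 was left out and 10 without DMBA replicate 3. The median over the list was 0.10 with DMBA and 0.09 with BaP. With DMBA alone in the same fit 4 rose and 0 fell, against 1.04% and 0.62% of all genes. With BaP alone 8 rose and 2 fell, against 2.85% and 3.2%. The shares of all genes, 2.06% higher and 1.83% lower, also stand beside the counts of each list below. Among genes above the median level they were 3.89% and 3.28%.

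Cdkn1a, the p21 inhibitor of cyclin-dependent kinases, read 9.91, 9.81 and 10.32 on DMBA arrays and 10.003, 9.93 and 9.93 on BaP arrays, against 8.65, 8.81 and 8.62 on acetone arrays. Its levels with DMBA and BaP overlapped and lay well above acetone, 2.45-fold in the pooled value (SE of the log2 difference 0.10, adjusted p = 1.36e-06), with a DMBA difference of 1.32 and a BaP difference of 1.26. Phlda3, a p53-induced inhibitor of AKT signalling, read 8.87, 8.84 and 9.26 on DMBA arrays and 9.22, 9.11 and 8.91 on BaP arrays, against 8.07, 8.22 and 8.16 on acetone arrays. It rose by 0.88 (SE 0.10, adjusted p = 5.43e-05), and its dimmer probe gave 0.25. Trp53inp1, a stress protein that binds p53, rose by 0.52 and the leucine sensor gene Sesn2 by 0.39. The death receptor gene Fas rose by 0.32, with 0.16 for DMBA and 0.49 for BaP, and the call was lost with any acetone array left out. Ephx1, which also belongs to the aryl hydrocarbon receptor list, rose by 0.50, Zfp365 by 0.33 and Ccng1, the cyclin G gene, by 0.31. Trp53inp1, Ephx1, Sesn2, Fas and Ccng1 did not pass with median scaling. Ccng1 also did not pass with any acetone array left out, and Sesn2 and Zfp365 did not pass without acetone replicate 2 or 3. The other classical targets Mdm2 and Bax gave pooled differences of -0.09 (adjusted p = 0.626) and 0.03 (adjusted p = 0.942), and Trp53 itself gave 0.02 (adjusted p = 0.974).

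The promoter windows of these genes, 250 bases before to 50 after the start in RefSeq's annotation of GRCm38.p6, were searched on both strands for the p53 response element, a pair of adjoining copies of one motif, with at most 1 mismatch in 20 positions and no spacer. The search was added after the windows had been seen. The element was found in the windows of 10 of 13684 tested genes with a window (0.0731%), in 2 of 275 called higher (0.727%) and in 0 of 251 called lower. The 2 were Cdkn1a and Ccng1, so their windows are shown with the element in capitals. Ccng1 was singled out after its values were seen. The Cdkn1a window is the upstream one of its 2 starts, chr17:29090729-29091028 on the plus strand, and the Ccng1 window is chr11:40755237-40755536 on the minus strand.
Cdkn1a: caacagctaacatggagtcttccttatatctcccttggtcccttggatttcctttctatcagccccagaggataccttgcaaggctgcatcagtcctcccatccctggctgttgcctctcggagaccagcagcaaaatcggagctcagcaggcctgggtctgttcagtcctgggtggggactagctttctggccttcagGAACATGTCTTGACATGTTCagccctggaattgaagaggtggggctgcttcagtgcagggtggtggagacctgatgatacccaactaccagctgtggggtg
Ccng1: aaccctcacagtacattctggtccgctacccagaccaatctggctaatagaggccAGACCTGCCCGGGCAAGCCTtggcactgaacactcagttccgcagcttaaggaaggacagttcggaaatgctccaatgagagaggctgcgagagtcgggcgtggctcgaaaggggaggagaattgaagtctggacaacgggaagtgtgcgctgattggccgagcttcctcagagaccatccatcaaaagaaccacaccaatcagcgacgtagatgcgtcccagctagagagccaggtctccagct
Ccng1 read 10.69, 10.54 and 10.45 on DMBA arrays and 10.68, 10.55 and 10.55 on BaP arrays, against 10.31, 10.29 and 10.20 on acetone arrays. The groups did not overlap, and its other probes gave 0.57 and 0.56. Phlda3 held no such element in its window, which says only that these letters are not there.

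Of the aryl hydrocarbon receptor battery, 5 of 19 measured genes rose and 0 fell, with a list median of 0.07. With median scaling 1 rose. Ugt1a6a, a glucuronosyltransferase gene that the receptor controls, read 7.47, 7.80 and 7.78 on DMBA arrays and 8.09, 8.33 and 8.41 on BaP arrays, against 7.42, 6.91 and 6.90 on acetone arrays. All 6 hydrocarbon arrays lay above acetone, the lowest DMBA array only just, and the pooled difference was 0.90 (SE 0.12, adjusted p = 2.34e-04), with 0.61 for DMBA and 1.20 for BaP. Its dimmer probes gave 0.20 and 0.05, and Ugt1a genes share exons, so the isoform is uncertain. Nfe2l2, which encodes the antioxidant regulator NRF2, rose by 0.53 (adjusted p = 4.73e-04) and Ephx1, the microsomal epoxide hydrolase that takes part in making diol epoxides, rose by 0.50 (adjusted p = 0.00239). The quinone reductase gene Nqo1 rose by 0.35, with 0.19 for DMBA and 0.50 for BaP, and the purine oxidase gene Xdh by 0.31, with -0.31 for DMBA and 0.93 for BaP. The Xdh call was lost with any acetone array left out and with median scaling, and the Nqo1 call with the mean of all probes.

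Cyp1a1, the cytochrome P450 most used as a marker of receptor activation, read 5.92, 5.85 and 6.05 on DMBA arrays and 5.91, 5.99 and 5.81 on BaP arrays, against 5.87, 6.04 and 5.84 on acetone arrays. These levels overlapped and lay near the lowest of all genes, where 5% were below 5.87, so a change would be hard to see with this probe. Ahr was as dim, at 5.90 ± 0.05 with the hydrocarbons (SD, n = 6) and 5.94 ± 0.0049 with acetone (SD, n = 3). Cyp1b1, the P450 that forms the DMBA diol epoxide in mouse tissue, was bright, at 10.40 ± 0.22 with the hydrocarbons and 10.30 ± 0.08 with acetone (SD, n = 6 and 3), and its pooled difference was 0.10 (SE 0.11, adjusted p = 0.786). The receptor repressor gene Ahrr gave 0.15 (adjusted p = 0.385).

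The letters GCGTG or CACGC are the core of the xenobiotic response element, which the receptor binds. The Cyp1a1 window is shown because it holds 1 copy of these letters in this reference gene of the pathway, in capitals. A match to the core letters alone does not show a receptor site, and binding to this copy was not tested. The window lies at chr9:57697363-57697662 on the plus strand of GRCm38.p6.
Cyp1a1: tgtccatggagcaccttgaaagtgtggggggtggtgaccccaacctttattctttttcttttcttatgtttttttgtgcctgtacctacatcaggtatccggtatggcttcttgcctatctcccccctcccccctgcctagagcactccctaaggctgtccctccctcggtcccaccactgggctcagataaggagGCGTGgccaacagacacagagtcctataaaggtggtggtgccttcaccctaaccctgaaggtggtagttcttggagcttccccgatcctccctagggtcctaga
The core was found in the windows of 44.4% of tested genes, 50.5% of those called higher, 48.2% of those called lower and 8 of the 15 battery genes with a window (53.3%). The windows of Ugt1a6a, Nqo1, Nfe2l2 and Ephx1 held none. For Xdh, the other member that rose, no separate result was drawn from this search.

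Of 32 NRF2 and antioxidant genes, 3 rose and 1 fell. Besides Nfe2l2 and Nqo1, the secreted glutathione peroxidase gene Gpx3 rose by 0.44 (adjusted p = 0.0167). The sulfiredoxin gene Srxn1 fell by 0.27, with -0.07 for DMBA and -0.48 for BaP. Hmox1, the heme oxygenase gene, gave -0.20 (adjusted p = 0.449). Of 40 glutathione transferases and conjugating enzymes, 4 rose and 0 fell, with Gstm6 at 0.45, Aldh1a1 at 0.39 and Akr1b3 at 0.37 beside Ephx1. With median scaling 0 rose and 3 fell in this list, and 0 rose and 4 fell in the NRF2 list.

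Splicing factors and hnRNP proteins gave 7 genes that rose and 0 that fell among 44. The members with the largest values were Hnrnpa2b1 at 1.47, Ddx5 at 1.10, Hnrnpk at 0.87 and Srsf5 at 0.68. The list's median was 0.00 against -0.01 over all genes. Hnrnpk read 9.40, 9.52 and 9.57 on DMBA arrays and 9.41, 9.69 and 9.73 on BaP arrays, against 8.99, 8.39 and 8.67 on acetone arrays. The groups did not overlap, but the other Hnrnpk probes gave -0.04 and -0.12, and a second bright Srsf5 probe gave -0.20, so neither gene passed when all its probes were averaged, at 0.24 each.

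Heat shock and endoplasmic reticulum chaperones gave 4 of 33 that rose and 0 that fell. Hspa8, the constitutive cytosolic chaperone, read 12.28, 12.31 and 12.53 on DMBA arrays and 12.37, 12.69 and 12.77 on BaP arrays, against 11.63, 11.16 and 11.04 on acetone arrays. Calr read 9.98, 10.48 and 10.29 on DMBA arrays and 10.46, 10.46 and 10.75 on BaP arrays, against 9.35, 9.06 and 9.05 on acetone arrays. For both genes acetone replicate 1 came nearest to the hydrocarbon arrays and did not reach them. Hyou1 rose by 0.31 and Dnajc3 by 0.27, and neither passed without acetone replicate 1, 2 or 3, or with median scaling.

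Oocyte genes split. Of 43 measured, 6 fell and 3 rose, and the list's mean level ranged over 9.04 to 9.08 on DMBA arrays, 8.96 to 8.996 on BaP arrays and 9.07 to 9.09 on acetone arrays. With median scaling 10 fell and 2 rose. Oosp1, which encodes an oocyte-secreted protein, read 8.29, 7.99 and 7.86 on DMBA arrays and 7.92, 7.76 and 7.89 on BaP arrays, against 8.64, 8.83 and 8.98 on acetone arrays. Its pooled difference was -0.87 (SE 0.10, adjusted p = 6.15e-05), the largest fall in the list. Bmp15, a growth factor that oocytes send to granulosa cells, read 9.14, 8.87 and 8.90 on DMBA arrays and 8.61, 8.82 and 8.56 on BaP arrays, against 9.59, 9.65 and 9.33 on acetone arrays. Its pooled difference was -0.71 (SE 0.09, adjusted p = 2.24e-04), and all hydrocarbon arrays lay below acetone. Rfpl4, a ring finger gene of oocytes, fell by 0.54, Ftdc2 by 0.51, the BCL2 family gene Bcl2l10 by 0.36 and the oocyte linker histone gene H1f8 by 0.33.

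Spin1, a histone-binding protein of eggs that other cells also make, read 7.04, 7.15 and 7.28 on DMBA arrays and 7.24, 7.24 and 7.41 on BaP arrays, against 6.67, 6.46 and 6.38 on acetone arrays. It rose by 0.72 (SE 0.08, adjusted p = 7.48e-05). The germ cell helicase gene Ddx4, whose probe is dim, rose by 0.38 with that probe, while its other probes gave 0.01 each and the call was lost with the mean of all probes. Btg4, a deadenylation adaptor gene, rose by 0.32. Several other oocyte genes did not pass. Gdf9, the partner of Bmp15, averaged 12.36 ± 0.12 with the hydrocarbons and 12.62 ± 0.18 with acetone (SD, n = 6 and 3), a pooled difference of -0.26 (SE 0.08, adjusted p = 0.112). The zona protein gene Zp3 gave 0.23 (adjusted p = 0.338), the transcription factor genes Nobox and Figla gave -0.06 and -0.05 (adjusted p = 0.837 and 0.893), and Foxo3, which holds primordial follicles dormant, gave 0.04 (adjusted p = 0.924). Of 34 meiosis genes 1 rose and 1 fell, 2.94% each, near the 2.06% and 1.83% of all genes. Ddx4 rose, and the meiotic cohesin gene Smc1b gave -0.37, with -0.05 for DMBA and -0.70 for BaP. Of 27 genes listed for the primordial follicle activation pathway, 1 fell and 0 rose. The one that fell, by 0.40, was Pdk1. This is the mouse symbol of a pyruvate dehydrogenase kinase, not of Pdpk1, the kinase gene of that pathway.

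Granulosa cell genes gave 4 that fell (12.1%) and 1 that rose (3.03%) among 33, with a median of -0.07. Of all genes, 1.83% fell and 2.06% rose. Hsd17b1, which converts oestrone to oestradiol, fell by 0.54 (SE 0.10, adjusted p = 0.00361). The oestrogen-responsive gene Greb1 fell by 0.39, the aromatase gene Cyp19a1 by 0.33 and the oestrogen receptor gene Esr2 by 0.32. Hsd17b1 read 9.50, 9.28 and 9.13 on DMBA arrays and 9.04, 8.88 and 9.30 on BaP arrays, against 9.66, 9.75 and 9.78 on acetone arrays. The closest DMBA array was still below all acetone arrays. Foxl2, the granulosa cell identity factor, rose by 0.38 (SE 0.09, adjusted p = 0.0218), and Amh, made by growing follicles, gave -0.09 (adjusted p = 0.78). Foxl2 and Cyp19a1 were not called with any acetone array left out. Among 30 theca and steroid synthesis genes, 3 fell and 1 rose. Hsd11b1, which regenerates active glucocorticoid, rose by 0.57 (SE 0.07, adjusted p = 2.04e-04), with 0.33 for DMBA and 0.82 for BaP.

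Of 34 stroma and matrix genes, 5 rose and 1 fell. Spon2, a secreted matrix protein, read 10.15, 10.14 and 10.24 on DMBA arrays and 10.94, 11.05 and 11.01 on BaP arrays, against 9.86, 9.75 and 9.80 on acetone arrays. All 9 arrays fell into 3 levels by treatment, with pooled value 0.78 (SE 0.07, adjusted p = 4.53e-06), 0.37 for DMBA and 1.20 for BaP. Fbln2, a fibulin of elastic matrix, rose by 0.76, with 0.50 for DMBA and 1.01 for BaP. The collagen gene Col5a1 fell by 0.29. The mean level of the list ran over 9.92 to 9.95 on DMBA arrays, 10.12 to 10.18 on BaP arrays and 9.93 to 9.99 on acetone arrays, so the shift of the list lay on the BaP arrays. With median scaling 1 rose and 3 fell.

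Endothelial genes gave 2 that fell and 0 that rose among 26, Sox18 at -0.49 and Plvap at -0.35. Smooth muscle genes gave 2 that fell and 1 that rose among 18. The visceral actin gene Actg2 fell by 0.45 and the smooth muscle myosin gene Myh11 by 0.39, and desmin, Des, rose by 0.27 with 0.55 for BaP and 0.00 for DMBA to 2 decimals. Of 19 surface epithelium genes, 3 rose and 2 fell. Cldn15, a claudin of cell junctions, read 8.30, 8.23 and 8.12 on DMBA arrays and 8.56, 8.45 and 8.61 on BaP arrays, against 7.43, 7.63 and 7.68 on acetone arrays. It rose by 0.80 (SE 0.08, adjusted p = 1.61e-05), with no overlap of the groups. The E-cadherin gene Cdh1 fell by 0.36 and the keratin gene Krt18 by 0.29, while the retinal dehydrogenase gene Aldh1a1 and the mesothelial factor gene Bnc1 rose by 0.39 and 0.32.

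Genes of tubal and glandular epithelium fell most often among the lists. Of 34 measured, 14 fell and 0 rose, with a median of -0.16. In all, 10 of the members were put on the list with their change in these data known, and among the other 24 the count was 5 that fell and 0 that rose, with a median of -0.03. Among them were the deiminase gene Padi2 at -0.54, the cell adhesion gene Cdh1 at -0.36, the epithelial transcription factor gene Elf3 at -0.35 and the mucin gene Muc1 at -0.29. The list's mean level ran over 7.47 to 7.50 on DMBA arrays, 6.98 to 7.06 on BaP arrays and 7.58 to 7.63 on acetone arrays. The tubal markers Foxj1 and Ovgp1 gave 0.05 and 0.08 (adjusted p = 0.867 and 0.738). Padi1, Gabrp, Dynlrb2 and Sdc4 fell with both compounds, with DMBA differences from -0.68 to -1.68. Ltf, Wfdc2, Sprr2f and Lcn2 fell on the BaP arrays and are taken up below with the genes that 1 compound moved.

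Of 34 macrophage and leukocyte genes 3 fell and 0 rose, the leukocyte surface gene Cd52 at -0.61, the actin-binding gene Coro1a at -0.66 and the fractalkine receptor gene Cx3cr1 at -0.46. Their DMBA differences were -0.16, -0.14 and -0.12 and their BaP differences -1.06, -1.18 and -0.81. The list's mean level was 7.76 on all DMBA arrays, 7.32 to 7.38 on BaP arrays and 7.62 to 7.65 on acetone arrays, so the compounds lay on opposite sides of acetone. The macrophage genes Csf1r and Cd68 gave pooled differences of -0.27 and 0.21, and neither passed (adjusted p = 0.0504 and 0.365). Immune results below stand beside these levels, and the part of leukocyte content in them was not tested.

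Antigen presentation genes gave 3 that rose and 1 that fell among 24. H2-Ea, an MHC class II chain, read 6.93, 6.96 and 7.01 on DMBA arrays and 7.56, 7.64 and 7.63 on BaP arrays, against 6.16, 6.27 and 6.46 on acetone arrays. It rose by 0.99 (SE 0.07, adjusted p = 1.36e-06) with no overlap. The peptide loading gene Tapbp rose by 0.61 and the class II gene H2-Aa by 0.37, both larger with DMBA, at 0.80 and 0.50, than with BaP, at 0.43 and 0.24. H2-K1, a class I heavy chain, fell by 1.30, with 0.23 for DMBA and -2.83 for BaP. The mean level of the list ran over 8.17 to 8.42 on DMBA arrays, 7.73 to 7.78 on BaP arrays and 7.91 to 7.997 on acetone arrays.

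Complement genes gave 3 of 26 that rose and 0 that fell. C1s1, a protease of the first component, read 8.49, 8.51 and 8.34 on DMBA arrays and 8.73, 8.71 and 8.63 on BaP arrays, against 8.02, 7.55 and 7.44 on acetone arrays. It rose by 0.90 (SE 0.10, adjusted p = 7.48e-05), and acetone replicate 1 stood above the other acetone arrays. Its inhibitor gene Serping1 rose by 0.36 and the regulator gene Cr1l by 0.42. Interferon response genes gave 3 of 39 that rose and 1 that fell. Rsad2, an antiviral enzyme, rose by 0.43, the chemokine gene Cxcl10 by 0.42 and Ifit3 by 0.38, and all 3 had larger values with DMBA, at 0.56, 0.56 and 0.53, than with BaP, at 0.30, 0.28 and 0.23. The regulator gene Irf8 fell by 0.34. None of these 4 interferon genes was called with median scaling.

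Inflammation and chemokine genes gave 7 that rose and 2 that fell among 38. Cxcl13, a chemokine that attracts B cells, read 7.28, 7.06 and 6.76 on DMBA arrays and 6.78, 6.70 and 6.92 on BaP arrays, against 5.94, 6.18 and 5.98 on acetone arrays. It rose by 0.88 (SE 0.10, adjusted p = 7.48e-05), and the acetone arrays were near the lowest levels measured. The serum amyloid gene Saa3 rose by 0.46, with 0.33 for DMBA and 0.59 for BaP, and did not pass with median scaling. The chemokine genes Ccl9, Cxcl1 and Cxcl12 rose by 0.32, 0.30 and 0.34, with DMBA differences of 0.45, 0.00 and -0.05 and BaP differences of 0.18, 0.61 and 0.73.

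Cell cycle genes gave 3 that rose and 1 that fell among 46. The replication helicase gene Mcm7 read 7.09, 7.11 and 7.07 on DMBA arrays and 7.28, 7.25 and 7.26 on BaP arrays, against 6.48, 6.47 and 6.40 on acetone arrays. It rose by 0.73 (SE 0.06, adjusted p = 5.19e-06). The cyclin gene Ccnd2 rose by 0.56 and the ribonucleotide reductase gene Rrm2 by 0.36, and the spindle checkpoint gene Bub1b fell by 0.36. Of 45 checkpoint and repair genes, 1 rose and 1 fell, and 43 did not pass. These shares, 2.22% each, are near the 2.06% and 1.83% of all genes. The one that fell was Brca2, which acts in homologous recombination, by 0.32. Of 36 apoptosis genes, Tnfrsf1a and Fas rose by 0.58 and 0.32 and Bik and Casp9 fell by 0.38 and 0.32.

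Sterol genes gave 3 that rose and 1 that fell among 24. Insig1, which holds the sterol sensor in the endoplasmic reticulum, rose by 0.83 (SE 0.13, adjusted p = 0.00171), Nsdhl, an enzyme of cholesterol synthesis, by 0.75 (adjusted p = 3.01e-04) and Insig2 by 0.42, while the transcription factor gene Srebf2 fell by 0.38. Of 35 hypoxia and glycolysis genes 1 passed (2.86%, against 2.06% of all genes higher), Hif1a, the oxygen-sensitive factor. It read 8.51, 8.42 and 8.15 on DMBA arrays and 7.94, 8.26 and 8.19 on BaP arrays, against 7.63, 7.49 and 7.19 on acetone arrays, a pooled difference of 0.81 (SE 0.11, adjusted p = 2.66e-04). Of 14 erythroid genes, the transferrin receptor gene Tfrc fell by 0.34. Of 12 reference genes 0 passed by limma, 2 had an unadjusted p under 0.05, and Actb and Gapdh gave 0.17 and -0.06. Actb turned to -0.08 with median scaling, and its other probes ran from -0.93 to 0.46.

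**Figure D3:**
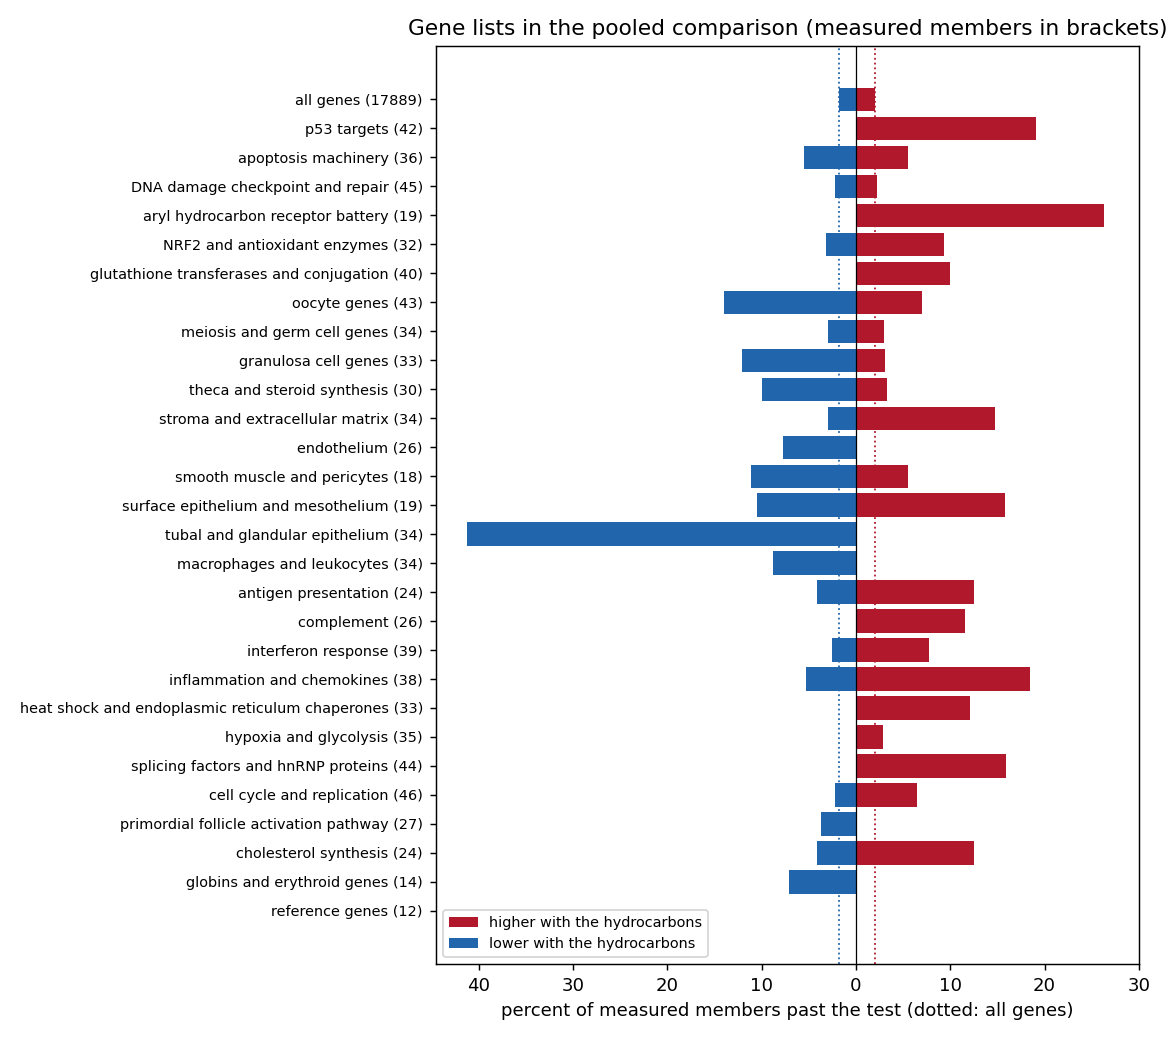
Bars give the percent of the measured members of each list, with their number in brackets, that rose (red, right) or fell (blue, left) with the hydrocarbons at an adjusted p under 0.05. Dotted lines mark 2.06% and 1.83% of all genes. Tubal and glandular epithelium has the longest bar, 14 of 34 lower. Of the 34 members, 10 were listed with their change known. With median scaling most red bars shorten.

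One pooled number can hide unequal parts. In 69 of the 697 called genes the smaller compound difference was under 0.25 of the larger, and in 67 of those DMBA was the smaller. Ltf, the iron-binding secreted protein lactoferrin, read 10.81, 10.68 and 10.95 on DMBA arrays and 6.63, 6.81 and 6.77 on BaP arrays, against 10.94, 10.80 and 10.76 on acetone arrays. Its pooled difference of -2.06 (SE 0.08, adjusted p = 2.33e-10) joined a DMBA difference of -0.02 and a BaP difference of -4.09. The DMBA and acetone ranges overlapped. H2-K1 read 9.45, 9.74 and 9.69 on DMBA arrays and 6.45, 6.82 and 6.42 on BaP arrays, against 9.50, 9.25 and 9.44 on acetone arrays, so its pooled -1.30 describes neither compound. Wfdc2, a secreted protease inhibitor of epithelia, gave -0.15 for DMBA and -2.03 for BaP, and Sprr2f, a cornified envelope gene, gave -0.11 and -1.79. Prcp, a lysosomal carboxypeptidase gene, gave -0.46 and -2.12.

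Among the higher genes, Serpinb2, a serine protease inhibitor, read 6.65, 6.54 and 6.83 on DMBA arrays and 8.37, 8.49 and 8.53 on BaP arrays, against 6.33, 6.39 and 6.27 on acetone arrays. Its pooled difference was 1.24, with 0.34 for DMBA (adjusted p = 0.0706) and 2.13 for BaP (adjusted p = 4.22e-10). Lox, the collagen cross-linking enzyme, gave 0.21 and 0.92, and Cldn11, a claudin, gave 0.16 and 0.81. S100a8, a calcium-binding protein of neutrophils, was a case in which DMBA was the larger part. It read 7.33, 7.42 and 7.07 on DMBA arrays and 6.48, 6.19 and 5.93 on BaP arrays, against 6.28, 6.16 and 6.19 on acetone arrays. The BaP arrays spanned the acetone range, and the call was lost without acetone replicate 2 or 3.

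A pooled value near 0 can also stand for opposite differences. Of the 17889 genes tested, 111 had every DMBA array on one side of all acetone arrays and every BaP array on the other. Pglyrp1, which encodes a peptidoglycan recognition protein, read 8.14, 8.48 and 8.42 on DMBA arrays and 6.53, 6.34 and 6.50 on BaP arrays, against 7.49, 7.51 and 7.65 on acetone arrays. Its pooled difference was -0.15 (adjusted p = 0.471), from 0.80 for DMBA and -1.10 for BaP. H2-T23, a nonclassical class I gene, gave -0.15 pooled (adjusted p = 0.675), but its dimmer probe gave 0.66 for DMBA and -0.02 for BaP, so the fall with BaP was seen on 1 probe only. Cd74, the invariant chain of class II molecules, gave 0.13 (adjusted p = 0.484) and C1qc, a chain of complement C1q, gave 0.08 (adjusted p = 0.722). Lcn2, an iron-sequestering lipocalin, passed as lower at -0.61 (adjusted p = 1.24e-04) although all its DMBA arrays lay above acetone.

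**Figure D4:**
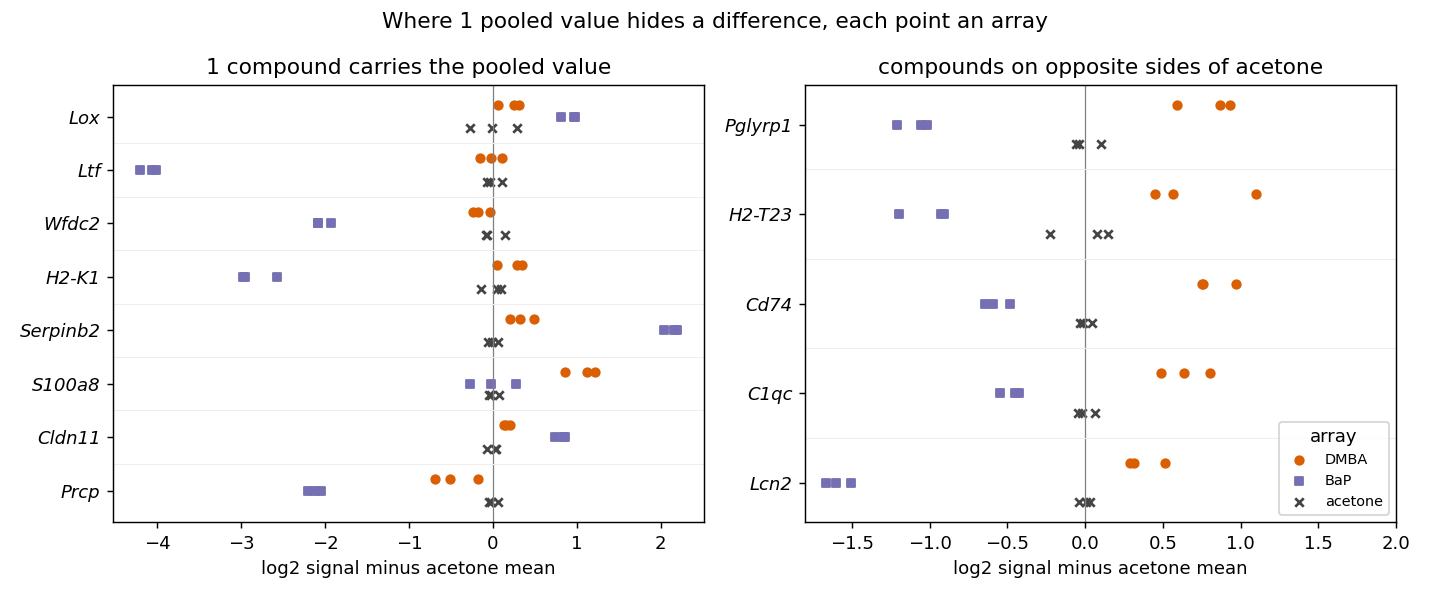
Points are arrays, placed by log2 signal minus the acetone mean, for DMBA (circles), BaP (squares) and acetone (crosses). On the left, 8 genes whose pooled value came mostly from 1 compound, such as Ltf with BaP arrays near -4.09 and DMBA arrays at acetone; on the right, 5 genes with DMBA above and BaP below acetone.

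A total of 41 genes passed in the pooled comparison and with neither compound alone in the same fit. In contrast, 477 of the 697 had a smaller compound difference of more than 0.5 times the larger in size. When the 6 hydrocarbon arrays were taken as 1 group, so that the difference between the compounds counted as spread, 334 genes passed, all among the 697. Ltf, H2-K1, Wfdc2, Prcp and Serpinb2 were then no longer called. The 24 genes that moved with both compounds still passed, but they had been chosen for separated groups.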

How the data were processed

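Expression was measured on 9 Illumina mouse Ref-8 arrays, 3 per treatment. The deposited values used here are probe intensity values that, per the file headers, were not normalized, and they come without detection p-values. The authors also deposited normalized log2 values of these arrays. Per the submitters' processing notes, lumi was used. The authors' deposited comparison sheets pair gene names with a linear ratio, a fold and an unadjusted p-value, from a model that no source used here describes. These ratios served to name probes. A probe took the name of the row in which both log2 ratios equalled its own differences between group means to within 0.0001, if the next row was at least 5 times farther away. This named 25649 of 25697 probes. Names were updated through RefSeq's GRCm38.p6 tables.

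Signals were corrected by normexp (offset 50), quantile normalized and fitted as 3 groups in R 4.3.3 with limma 3.58.1 (lmFit, eBayes), two-sided, with Benjamini-Hochberg adjustment over 17889 genes and 1 brightest probe per gene. All adjusted p-values come from limma. No filter on dim probes was applied. The number of arrays limits the precision: the median standard error of a pooled log2 difference was 0.08. The fit was tested on simulated data. Joins and exact permutation tests used pandas 2.3.3, numpy 2.4.6 and scipy 1.17.1 in Python 3.11.15, and plots used matplotlib 3.10.9.

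Members and the 28 gene lists were chosen with earlier results of these data known. Named genes were the 12 highest and 12 lowest called genes with separated groups and both compounds on one side of acetone, ranked by the smaller compound difference, up to 4 called genes per list, 4 higher and 4 lower genes with the smaller difference under 0.25 of the larger, 4 genes with compounds on opposite sides, and a panel of 22, of which 21 were on the array. Further called list members, chosen after their values were seen, are given by value. A few called genes are not reported here. Alternatives were another normalization, the deposited log2 values, no normexp, a filter on dim genes, the mean of all probes, 1 hydrocarbon group, array weights, a replicate block, single compounds and each array left out.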

Additional observations from a re-analysis of the deposited data

Results flagged for a closer look

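Among the 124 named genes, 6 had every DMBA array on one side of all acetone arrays and every BaP array on the other. Of all 17889 genes tested, 111 did. Pglyrp1, H2-T23, Cd74 and C1qc were named because their compound differences were opposite, so their presence here restates that choice. The difference between the compounds was not tested. Log2 differences from acetone were 0.80 for DMBA and -1.10 for BaP in Pglyrp1, 0.70 and -1.01 in H2-T23, 0.83 and -0.57 in Cd74, 0.64 and -0.47 in C1qc, 0.37 and -1.59 in Lcn2, and 0.13 and -0.24 in Gapdh. A dimmer H2-T23 probe gave 0.66 for DMBA and -0.02 for BaP.

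In 5 of the 124 named genes, 1 of the 6 hydrocarbon arrays lay far from the others, by a gap over the range above Dixon's critical value. Chance flags about 1 in 20 groups drawn from a single distribution. The 6 arrays mix DMBA and BaP, so that rate cannot decide whether this count is an excess. The gap over the range was 0.632 for Trp53inp1, 0.750 for Ccnd2, 0.655 for Cyp1b1 and 0.633 for Figla, and in these 4 genes DMBA replicate 3 was the lowest array. It was 0.900 for Srebf2, in which BaP replicate 2 was the highest.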

How the results depend on the processing

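Of 104 named genes past the test, 0 changed direction in the 17 alternatives that kept both compounds. In every one of these alternatives that tested them 40 passed, among them the 24 that moved with both compounds. The filter on dim genes held 100 of the 104 and did not test Dynlrb2 and Tmprss2, which are among the 24. Those 24 had been chosen for large differences with both, so their passing is no separate support. The calls over all genes varied more. Against 697 (369 higher, 328 lower), median scaling gave 99 higher and 786 lower, 1 hydrocarbon group gave 334 (199 and 135), array weights gave 1567 (700 and 867), the DMBA arrays alone with acetone gave 181 (126 and 55) and the BaP arrays alone gave 1918 (863 and 1055). Leaving out 1 array gave 269 to 1268 calls, 159 to 596 higher and 110 to 672 lower, with the fewest without acetone replicate 2 and the most without DMBA replicate 3. Without acetone replicate 1 and 3 the calls were 402 and 331. Each removal of an acetone array lost 24 to 34 of the 104 named genes. The replicate block gave 599 calls (320 higher, 279 lower), 570 of them among the 697. Same-numbered arrays deviated together at r from -0.19 to 0.14, so the numbers were not taken to pair the arrays. A block on the beadchip was not run, since the column headers name none. The causes of these changes were not tested.

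Signs turned with median scaling in Cd74 (-0.18), C1qc (-0.18), Bax (-0.27), Trp53 (-0.29), Ahr (0.027), Cyp1b1 (-0.19), Zp3 (-0.024) and Actb (-0.085). With the mean of all probes they turned in H2-T23 (0.084), Mdm2 (0.012) and Actb (-0.23), and with array weights in Cyp1a1 (-0.043) and Figla (0.026). The DMBA arrays alone gave Gdf10 -0.13, Des -0.0023, H2-K1 0.23, Lcn2 0.37, Pglyrp1 0.80, H2-T23 0.70, Nobox 0.0067 and Gapdh 0.13. The BaP arrays alone gave S100a8 -0.0068, Cd74 -0.57, C1qc -0.47, Bax -0.090, Trp53 -0.0075 and Cyp1a1 -0.012. Leaving out 1 array moved Bax over -0.050 to 0.097, Trp53 over -0.079 to 0.10, Cyp1a1 over -0.030 to 0.069, Figla over -0.14 to 0.034 and Foxo3 over -0.051 to 0.16, and these 5 did not pass in any of these fits. Dim probes limit what could be seen for Cyp1a1 and Ahr.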
